A study of Homo sapiens with 9 samples.

Results

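The core of the spliceosome was followed through 47 genes, taken by symbol from a list that names protein genes of the U1, U2, U4/U6 and U5 small nuclear ribonucleoproteins (snRNPs), the Sm ring they share, the Prp19 complex and factors that join at activation or at early recognition of the 3′ splice site. The list itself uses no measured value, though it was drawn up with earlier results of these data known. They are 47 of the 58214 genes measured, and all 47 had enough counts to be tested in every comparison. For the description they were sorted by textbook role into 8 classes: the Sm ring with 8 genes, the U1 snRNP with 3, the U2 snRNP with 11, the U4/U6 and tri-snRNP class with 6, the U5 snRNP with 5, the Prp19 complex with 5, the activation and catalytic step with 7, and early recognition of the 3′ splice site with 2.

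Poly(A)-enriched RNA was sequenced from K562 cells, an immortalised human erythroleukaemia line. All cells were transfected with siRNA and harvested on day 4, and the groups were a non-targeting siRNA (SCR), an siRNA against DHX34 (DHX34 knockdown) and an siRNA against UPF1 (UPF1 knockdown), with 3 libraries each. DHX34 is an RNA helicase with roles in nonsense-mediated decay (NMD) and splicing, and UPF1 is the central helicase of NMD, the pathway that destroys mRNAs with a premature stop codon. The comparisons ask how the mRNAs that encode the splicing machinery itself, and the isoforms made from those genes, differ after loss of either helicase. The labels spell the line K562 in the titles and K652 elsewhere, and give the treatment of the SCR libraries as WT. The non-targeting siRNA is taken from the methods of the study. The measurements come from a single line and from transient knockdown, so both targets were lowered and not removed.

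As background, the spliceosome is assembled anew on each intron. U1 pairs with the 5′ splice site, U2 with the branch point, and the U4/U6.U5 tri-snRNP then joins and is remodelled by helicases into the catalytic form, to which the Prp19 complex is added. The Sm proteins form a ring on the U1, U2, U4 and U5 RNAs. Many genes of the splicing machinery make, besides their coding mRNA, isoforms that skip an exon or include an extra one and so carry a premature stop codon. Such isoforms are degraded by NMD and are normally scarce.

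The libraries held 73478797 to 103625443 expected counts. DHX34 stood at 18.4, 19.4 and 18.2 TPM (transcript abundance corrected for length and library size) in SCR and at 9.49, 9.40 and 11.05 in the DHX34 knockdown, 42.6% of SCR in the count fit. UPF1 stood at 46.4, 51.4 and 49.9 TPM in SCR and at 23.2, 23.0 and 22.9 in the UPF1 knockdown, 40.2% of SCR in the count fit. Both percentages are of scaled counts, and the TPM values beside them show smaller falls. All 9 erythroid markers were present at 33.0 TPM or more in every library, and of 8 markers of other cell types 3 exceeded 1 TPM in any library, with MS4A1 at 0 throughout. The summed erythroid markers, mostly globins, ran from 25562 to 27154 TPM in SCR, 23536 to 25636 in the DHX34 knockdown and 15519 to 16727 in the UPF1 knockdown. The summed markers of other cell types ran from 3.69 to 4.49, 5.34 to 5.90 and 3.19 to 3.72 TPM. The part of these shifts in the results below was not tested, and in bulk RNA fewer cells of a kind and less RNA per cell cannot be told apart.

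Sequences of isoforms whose share was called higher after UPF1 knockdown are shown first. Of the 47 genes, 16 have 1 or more isoforms that the annotation (GENCODE release 44 on GRCh38) classes as an NMD target. After UPF1 knockdown the share of these isoforms rose in 6 of the 15 genes that could be tested. Of all 3846 genes tested, 18.4% had a higher share. For each of the 6 genes the line below gives the last coding bases of the NMD isoform that gained most, with its premature stop codon in capitals.

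SNRPB-203: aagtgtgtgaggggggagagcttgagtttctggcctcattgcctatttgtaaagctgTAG
SNRPA1-207: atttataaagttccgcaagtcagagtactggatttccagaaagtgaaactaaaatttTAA
TXNL4A-204: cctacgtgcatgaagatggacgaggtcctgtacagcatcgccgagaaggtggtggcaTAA
SF1-211: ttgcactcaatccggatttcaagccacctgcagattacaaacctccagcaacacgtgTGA
SF3B3-209: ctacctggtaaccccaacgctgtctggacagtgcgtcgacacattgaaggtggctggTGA
USP39-209: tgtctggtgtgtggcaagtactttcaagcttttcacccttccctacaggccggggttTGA

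In 3 of these isoforms the stop codon lies in an exon that no coding isoform of the gene contains. In SNRPB-203 this is an exon of 124 bases (chr20:2467192-2467315, minus strand) with a TAG stop, in TXNL4A-204 an exon of 149 bases (chr18:79986602-79986750, minus strand) with a TAA stop, and in SF3B3-209 an exon of 29 bases (chr16:70550650-70550678, plus strand) with a TGA stop. The stop codon is followed by 5, 3 and 3 exon junctions in these isoforms. In SNRPA1-207, SF1-211 and USP39-209 the stop codon lies in an exon that coding isoforms also use. It is followed by 2, 8 and 1 exon junctions and lies 164, 1177 and 125 bases before the last of them. As background, an exon junction complex left downstream of a stop codon marks an mRNA for NMD. Each printed stretch of 60 bases crosses an exon junction. Of these bases, 58 belong to the exon with the stop codon in SNRPB-203, 12 in TXNL4A-204, 11 in SF3B3-209, 6 in SNRPA1-207, 20 in SF1-211 and 32 in USP39-209.

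Of the 16 isoforms called higher after UPF1 knockdown, 5 skip internal exons of the leading coding isoform. Shown here are the 4 that skip a single one, and the fifth, SNRPA1-202, skips exons 2, 3 and 6 of the 9 of SNRPA1. The skipped exon is shown in capitals, with 10 coding bases of the neighbouring exons on each side in lower case.

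SNRPA1-207, exon 6 of 9: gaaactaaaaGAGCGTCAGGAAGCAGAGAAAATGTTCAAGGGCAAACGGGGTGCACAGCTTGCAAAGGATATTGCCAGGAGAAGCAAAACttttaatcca
SF1-211, exon 3 of 13: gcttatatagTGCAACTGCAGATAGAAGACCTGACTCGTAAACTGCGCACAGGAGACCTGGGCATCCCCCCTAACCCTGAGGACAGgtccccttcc
EFTUD2-214, exon 24 of 27: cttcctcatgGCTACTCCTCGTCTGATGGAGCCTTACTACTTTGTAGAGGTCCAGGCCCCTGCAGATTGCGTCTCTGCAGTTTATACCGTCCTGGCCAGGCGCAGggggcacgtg
BCAS2-202, exon 3 of 7: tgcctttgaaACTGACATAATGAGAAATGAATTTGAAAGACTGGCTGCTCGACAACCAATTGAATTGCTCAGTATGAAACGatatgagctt

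These exons are 80 bases long in SNRPA1 (chr15:101286214-101286293, minus strand), 76 in SF1 (chr11:64773430-64773505, minus strand), 95 in EFTUD2 (chr17:44853296-44853390, minus strand) and 71 in BCAS2 (chr1:114576688-114576758, minus strand). All 4 are coding throughout, and none of the lengths is a multiple of 3, so skipping shifts the reading frame. In SNRPA1-207 the premature stop codon takes up the last 3 of the first 6 bases of the exon after the skipped one. EFTUD2-214 was called in 1 of 6 fits that leave out a library, that without SCR replicate 3, and the other 3 isoforms in all 6.

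Levels per transcript length were compared in TPM. The Sm ring held the most abundant members, with SNRPG at 888 ± 35.4 TPM in SCR (SD, n = 3 here and below), SNRPD2 at 669 ± 29.9 and SNRPB at 549 ± 26.5. Within the ring SNRPF (148 ± 2.15 TPM) and SNRPD3 (100.2 ± 6.45) were lower. As background, the ring holds its proteins in equal number. SNRPN, which encodes a protein nearly identical to that of SNRPB and is known from neurons, was at 0.444 ± 0.0805 TPM, with 34 to 49 expected counts in an SCR library. SNRPC (528 ± 5.77 TPM) led the U1 class over SNRNP70 (195 ± 6.31) and SNRPA (132 ± 3.36). In the U2 class SF3B5 (435 ± 8.43 TPM) was the highest and SF3B4 (63.2 ± 2.49) the lowest. In the U5 class TXNL4A (183 ± 3.97 TPM) was the highest and PRPF6 (51.1 ± 0.211) the lowest. USP39 (102 ± 0.611 TPM) and PRPF19 (188 ± 3.06) led the tri-snRNP and Prp19 classes, whose lowest members were PRPF3 (25.3 ± 0.338) and CDC5L (16.3 ± 0.803). CRNKL1 (7.33 ± 0.185 TPM), AQR (17.1 ± 0.873) and CWC22 (20.0 ± 0.893) were the lowest of the activation class, in which PRPF38A (92.2 ± 1.94) was the highest. AQR and CDC5L differed by less than their spread, as did the neighbours SYF2 (31.9 ± 0.628) and XAB2 (32.3 ± 0.769). Genes named as numbered pseudogenes of a member took at most 0.123% of that member's counts, and copies under other names were not counted.

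In the DHX34 knockdown 6 of the 47 members fell and none rose, at an edgeR quasi-likelihood adjusted p of at most 0.005 (Benjamini-Hochberg over 17004 genes). Of all genes tested, 4.86% were called lower and 5.54% higher. The members that fell were SNRPE, SNRPF and SNRPD1 of the Sm ring, PHF5A and SF3B6 of the U2 snRNP, and RBM17. The median log2 fold change of the 47 was -0.11, against 0.02 for all genes, and 43 lay below 0, against 47.2% of all genes. In 32 members (68.1%) the 3 knockdown and the 3 SCR libraries did not overlap in CPM, against 41.4% of all genes tested. The falls were small, and SNRPE, which fell most, dropped by 21.9%.

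In the UPF1 knockdown 18 members fell and 1 rose (17184 genes tested). Of all genes tested, 12.9% were called lower and 12.4% higher. The falls took in 6 of 8 Sm ring genes, all 3 U1 genes, 3 of 11 U2 genes, 2 of 5 U5 genes, 3 of 5 Prp19 genes and RBM17, and the rise was that of USP39. The median log2 fold change of the 47 was -0.13, against 0.02 for all genes, and 43 lay below 0, against 47.8% of all genes. The groups did not overlap in 40 members (85.1%), against 50.5% of all genes tested. Both knockdowns were set against the same 3 SCR libraries, so their values are given side by side and were not used to support each other.

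**Figure D1:**
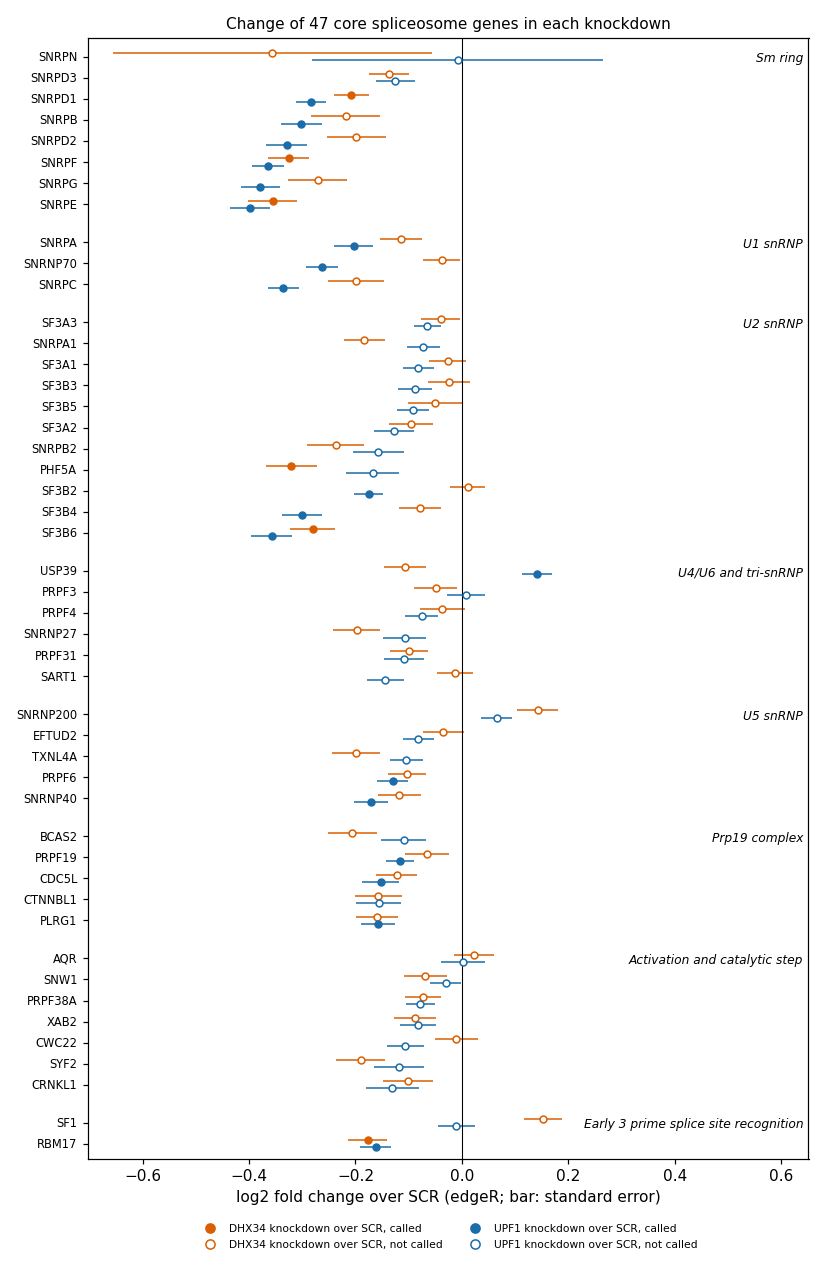
Log2 fold change of each of the 47 members over SCR (horizontal axis, edgeR on TMM-scaled counts, bars showing the standard error), with genes grouped by class and the DHX34 and UPF1 knockdowns in orange and blue. Filled points passed an adjusted p of 0.005, and 43 of 47 members lie left of 0 in each knockdown, while on the TPM scale 18 and 11 do.

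The size and sign of these shifts depended on the scale. When the same libraries were compared on log2(TPM + 0.5), the median of all genes itself moved by 0.13 after knockdown of DHX34 and 0.17 after that of UPF1, and the median of the members was 0.04 and 0.08, above 0. Relative to the median of all genes on that scale the members stood at -0.09 in both, and 38 and 40 of 47 lay below it. On counts 44 and 45 of 47 lay below the median of all genes. The summed TPM of the 47 members was 7335 to 7488 in SCR, 7354 to 7563 in the DHX34 knockdown and 7350 to 7475 in the UPF1 knockdown, and these ranges overlapped. The summed CPM (read counts scaled to library size by TMM) were 8249 to 8445, 7673 to 7980 and 7565 to 7627, and did not overlap. The changes below are therefore changes relative to the rest of the counted RNA.

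Transcript length went with the size of the change. Across the 47 members Spearman's rho between effective length and log2 fold change was 0.77 after DHX34 knockdown and 0.51 after UPF1 knockdown, against 0.24 and 0.15 across all genes. These are descriptions across genes, which share libraries and are not independent. The 24 shorter members (329 to 1543 bases) held all 6 falls of the DHX34 knockdown and 13 of the 18 falls of the UPF1 knockdown. When a trend of log2 CPM with gene length was removed from each library, rho across the members became 0.22 and -0.01. With the trend removed 4 members fell in the DHX34 knockdown (SNRPE, SNRPF, PHF5A and CDC5L), where 5.02% of all genes were called lower and 4.23% higher. After UPF1 knockdown 21 members then fell and 1 rose, beside 14.4% and 10.6% of all genes.

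**Figure D2:**
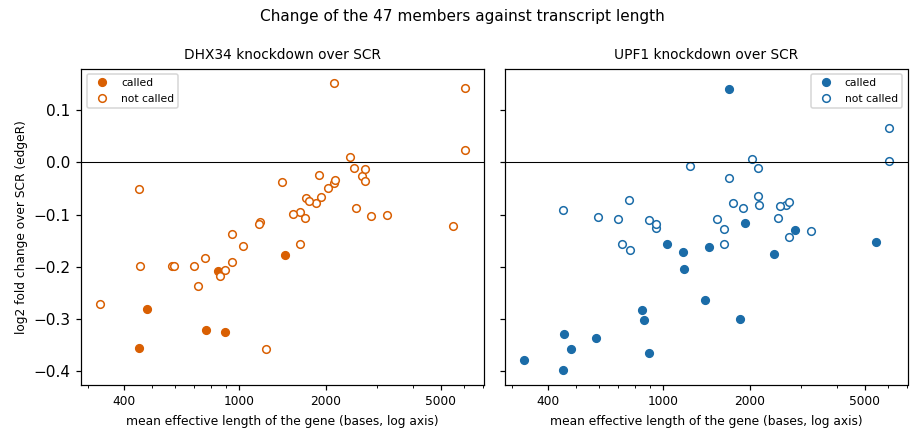
Log2 fold change over SCR (vertical axis, edgeR) against the mean effective length of each member in bases (horizontal axis, log scale), with the DHX34 knockdown on the left and the UPF1 knockdown on the right. Filled points passed the test. Shorter members tend to lie lower, with rho of 0.77 and 0.51, while SF3B5, among the shortest, lies at -0.05 and -0.09.

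The Sm ring showed the most falls. SNRPE (chr1:203861599-203871152, plus strand), a small ring protein with an effective length of 450 bases, measured 190.9, 182.8 and 201.5 CPM in SCR, 155.6, 150.9 and 142.3 in the DHX34 knockdown, and 147.8, 140.8 and 149.5 in the UPF1 knockdown. All 6 knockdown libraries lay below all 3 SCR libraries. The log2 fold change of SNRPE was -0.36 (SE 0.05, edgeR adjusted p 0.00037) after DHX34 knockdown and -0.40 (SE 0.04, edgeR adjusted p 5.68e-06) after UPF1 knockdown. SNRPF (chr12:95858952-95903828, plus strand) measured 140.0, 135.2 and 139.2 CPM in SCR, 114.2, 108.5 and 107.5 in the DHX34 knockdown, and 109.8, 106.4 and 106.8 in the UPF1 knockdown, again without overlap. The log2 fold changes of SNRPF were -0.33 (SE 0.04) and -0.37 (SE 0.03), and with SNRPE it was called in both knockdowns whichever library was left out.

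SNRPD1, which pairs with SNRPD2 in the ring, measured 186.8, 182.2 and 184.0 CPM in SCR, 160.4, 158.3 and 159.7 in the DHX34 knockdown and 151.7, 150.1 and 154.4 in the UPF1 knockdown, with log2 fold changes of -0.21 (SE 0.03) and -0.28 (SE 0.03). It passed the test in both. SNRPG, SNRPD2 and SNRPB passed it in the UPF1 knockdown and not in the DHX34 knockdown, and in the direct comparison of the knockdowns none of the 3 was called (edgeR adjusted p 0.203, 0.0636 and 0.388). SNRPG measured 317.6, 296.2 and 295.4 CPM in SCR, 259.8, 262.3 and 230.3 in the DHX34 knockdown and 240.6, 224.9 and 236.4 in the UPF1 knockdown, with log2 fold changes of -0.27 (adjusted p 0.00507) and -0.38 (SE 0.04). SNRPD2 fell by 0.33 and SNRPB by 0.30 on the log2 scale in the UPF1 knockdown, while after DHX34 knockdown these genes stood at -0.20 and -0.22. SNRPD3 passed neither test, at -0.14 and -0.13. SNRPN, at 0.382 to 0.671 CPM in every library, had log2 fold changes of -0.36 (SE 0.30) and -0.01 (SE 0.27), too imprecise at this depth to show a difference. The median of the ring was -0.24 after DHX34 knockdown and -0.32 after UPF1 knockdown.

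**Figure D3:**
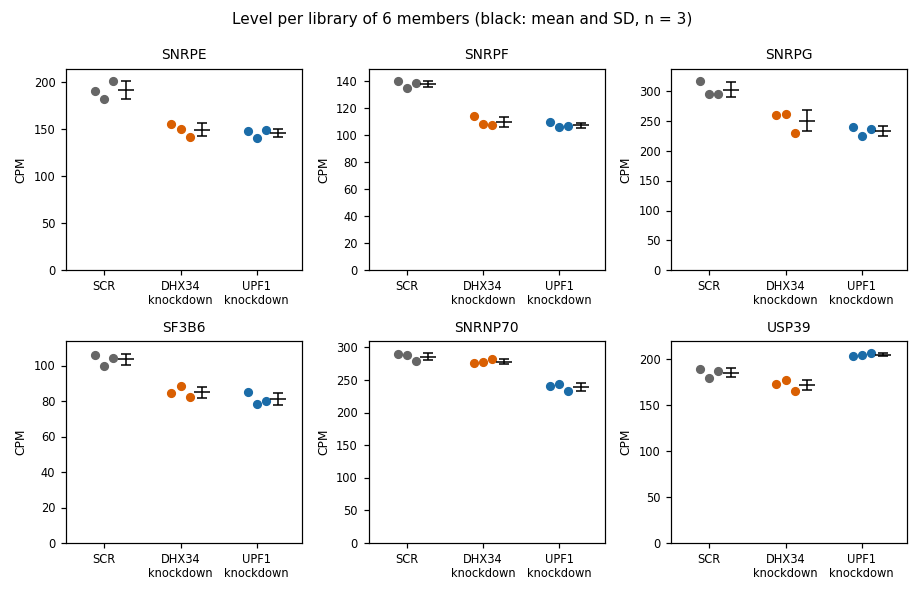
CPM per library (vertical axis from 0, scaled by TMM) of SNRPE, SNRPF, SNRPG, SF3B6, SNRNP70 and USP39 in SCR (grey), DHX34 knockdown (orange) and UPF1 knockdown (blue), with the mean and SD in black (n = 3). SNRPE, SNRPF, SNRPG and SF3B6 lie lower in both knockdowns, SNRNP70 is separated only in the UPF1 knockdown, and USP39 is higher only there.

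The mRNAs of all 3 U1 snRNP genes fell after UPF1 knockdown, and none passed the edgeR test after DHX34 knockdown. There 2 of the 3 had an unadjusted p under 0.05, beside 6231 of all 17004 genes tested. DESeq2, which called 20% of all genes, called 1. SNRNP70 (chr19:49085419-49108605, plus strand), the U1-70K protein that binds stem loop I of U1 RNA, measured 290.2, 288.0 and 279.4 CPM in SCR, 275.7, 277.0 and 281.9 in the DHX34 knockdown, and 240.6, 244.0 and 232.5 in the UPF1 knockdown. The DHX34 libraries overlapped SCR and the UPF1 libraries lay below both. The log2 difference from SCR came to -0.26 (SE 0.03, edgeR adjusted p 2.52e-05) for UPF1 knockdown and -0.04 (SE 0.03) for DHX34 knockdown. SNRPC, the U1 C protein that steadies the 5′ splice site duplex, measured 328.7, 308.0 and 324.2 CPM in SCR and 257.1, 254.0 and 253.1 in the UPF1 knockdown (log2 fold change -0.34, SE 0.03). SNRPA, the U1 A protein, fell by 0.20 on the log2 scale (SE 0.04, edgeR adjusted p 0.000739). On log2(TPM + 0.5) SNRPA was at 0.03, which is below the 0.17 by which the median of all genes moved. The DHX34 values of SNRPC and SNRPA were -0.20 and -0.11 with adjusted p of 0.0183 and 0.0524.

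In the U2 snRNP, which marks the branch point, 2 subunits fell after DHX34 knockdown and 3 after UPF1 knockdown, with SF3B6 in both. SF3B6, the subunit that contacts the branch-point adenosine, measured 106.0, 99.7 and 104.5 CPM in SCR, 84.5, 88.3 and 82.2 in the DHX34 knockdown, and 85.0, 78.2 and 80.0 in the UPF1 knockdown. It fell in both, by 0.28 (SE 0.04) and 0.36 (SE 0.04) on the log2 scale. PHF5A, which sits in the branch-point pocket of SF3B, measured 77.4, 68.9 and 73.5 CPM in SCR, 57.9, 60.5 and 57.4 in the DHX34 knockdown, and 65.5, 61.9 and 68.8 in the UPF1 knockdown. It fell in the DHX34 knockdown (log2 fold change -0.32, SE 0.05, edgeR adjusted p 0.000891), and in the UPF1 knockdown it was at -0.17 (adjusted p 0.0166). The direct comparison did not call the difference for PHF5A (log2 0.17, adjusted p 0.0132).

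SF3B4 and SF3B2, a pair of SF3B subunits that bind each other, fell in the UPF1 knockdown and were not called in the DHX34 knockdown. SF3B4 measured 116.2, 120.8 and 124.0 CPM in SCR, 117.7, 112.0 and 111.8 in the DHX34 knockdown, and 101.2, 99.8 and 93.4 in the UPF1 knockdown, a log2 fold change there of -0.30 (SE 0.04). SF3B2 measured 330.1, 338.4 and 335.6 CPM in SCR, 339.7, 335.1 and 335.6 in the DHX34 knockdown, and 298.1, 304.0 and 290.8 in the UPF1 knockdown, a log2 difference from SCR of -0.17 (SE 0.03, edgeR adjusted p 0.000279). The UPF1 libraries of SF3B2 lay below all 6 others. On log2(TPM + 0.5) SF3B2 was at 0.05, below the 0.17 of all genes. The other members of the class, SNRPA1, SNRPB2, SF3A1, SF3A2, SF3A3, SF3B3 and SF3B5, passed neither test and lay between -0.24 and -0.02 in the DHX34 knockdown and between -0.16 and -0.07 in the UPF1 knockdown.

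USP39, a catalytically inactive relative of the deubiquitinases that the tri-snRNP needs, was the only member to rise. It measured 188.9, 179.9 and 187.3 CPM in SCR, 172.8, 176.9 and 165.9 in the DHX34 knockdown, and 203.5, 205.0 and 207.0 in the UPF1 knockdown. The UPF1 libraries lay above all others and the DHX34 libraries below all others. Against SCR the rise was 0.14 on the log2 scale (SE 0.03, edgeR adjusted p 0.00164), and it was called in 1 of the 6 fits that leave out a library, that without SCR replicate 1. In TPM, which counts short isoforms more heavily, USP39 was at 102 ± 0.611 in SCR and 146 ± 0.405 after UPF1 knockdown. The other tri-snRNP members, PRPF3, PRPF4, PRPF31, SNRNP27 and SART1, passed neither test, with log2 fold changes from -0.20 to -0.01 in the DHX34 knockdown and from -0.14 to 0.01 in the UPF1 knockdown.

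Of the U5 genes, SNRNP40 (-0.17, SE 0.03) and PRPF6 (-0.13, SE 0.03) fell in the UPF1 knockdown. None of the 5 was called by edgeR in the DHX34 knockdown, where DESeq2 called 2. An unadjusted p under 0.05 was seen there in 4 of the 5, beside 6231 of all 17004 genes tested. On log2(TPM + 0.5) SNRNP40 and PRPF6 stood at 0.04 and 0.08, below the 0.17 of all genes but above 0. SNRNP200, the helicase that unwinds U4 from U6, measured 517.3, 552.2 and 543.0 CPM in SCR, 578.2, 590.6 and 610.1 in the DHX34 knockdown, and 559.2, 568.4 and 565.3 in the UPF1 knockdown. Its libraries did not overlap SCR in either knockdown, but neither value (0.14 and 0.07, edgeR adjusted p 0.0193 and 0.0974) passed the threshold. EFTUD2, the U5 GTPase, and TXNL4A stood at -0.03 and -0.20 in the DHX34 knockdown and at -0.08 and -0.10 in the UPF1 knockdown.

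In the Prp19 complex PLRG1, CDC5L and PRPF19, the ubiquitin ligase of the complex, fell in the UPF1 knockdown by 0.16, 0.15 and 0.12 on the log2 scale, and BCAS2 and CTNNBL1 were at -0.11 and -0.16 without passing. On log2(TPM + 0.5) PLRG1, CDC5L and PRPF19 stood at 0.01, 0.06 and 0.12, again above 0 and below the 0.17 of all genes. In the DHX34 knockdown the Prp19 class lay between -0.21 and -0.07, with none called by edgeR, 4 at an unadjusted p under 0.05 and 2 called by DESeq2. The 7 genes of the activation and catalytic step, SNW1, CRNKL1, SYF2, XAB2, AQR, CWC22 and PRPF38A, passed neither edgeR nor DESeq2 in either knockdown, with 2 and 5 at an unadjusted p under 0.05 (DESeq2 called 30.5% of all genes in the UPF1 knockdown). Their log2 fold changes ran from -0.19 (SYF2) to 0.02 (AQR) and from -0.13 (CRNKL1) to 0.00 (AQR). Of all genes tested, 6231 of 17004 had an unadjusted p under 0.05 in the DHX34 knockdown and 8130 of 17184 in the UPF1 knockdown.

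The 2 genes of early 3′ splice site recognition are given next. RBM17, an alternative 3′ splice site factor, measured 133.9, 130.5 and 136.4 CPM in SCR, 118.4, 113.8 and 121.9 in the DHX34 knockdown, and 120.4, 119.5 and 119.7 in the UPF1 knockdown, and fell in both by 0.18 and 0.16 on the log2 scale (SE 0.04 and 0.03). On log2(TPM + 0.5) RBM17 stood at -0.03 and 0.03. SF1, which binds the branch point before U2 arrives, measured 353.4, 370.4 and 364.2 CPM in SCR, 401.6, 405.4 and 400.7 in the DHX34 knockdown, and 361.7, 377.4 and 345.1 in the UPF1 knockdown. Its DHX34 libraries lay above all 6 others, with a log2 fold change over SCR of 0.15 (SE 0.04, edgeR adjusted p 0.0093) that missed the threshold.

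Part of these calls was lost when a library was left out, in fits that also had fewer samples. In the DHX34 comparison 10.4% of all genes were called with all libraries. Without SCR replicate 1, SCR replicate 3 or DHX34 knockdown replicate 1 it was 4.61%, 4.48% and 5.23%, and without DHX34 knockdown replicate 3 it was 10.3%. In the DHX34 knockdown 2 members, SNRPE and SNRPF, were called when SCR replicate 1, SCR replicate 3 or DHX34 knockdown replicate 1 was left out, and 8 when DHX34 knockdown replicate 3 was left out, adding SNRPG and SF1. RBM17 and SNRPD1 also lost their calls without DHX34 knockdown replicate 2, and RBM17 without SCR replicate 2. For UPF1, 13 to 17 members were called, beside 18.1% to 20.9% of all genes, against 25.3% with all libraries. SNRPB, SNRPD1, SNRPD2, SNRPE, SNRPF, SNRPG, SNRPA, SNRPC, SNRNP70, SF3B2, SF3B4 and SF3B6 were called in all 6 fits, RBM17 in 5, SNRNP40 in 4, PLRG1 in 2, and USP39, PRPF6, PRPF19 and CDC5L in 1 each.

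The knockdowns were also compared directly, without the SCR libraries, to ask where they differ. Of the 47 members 1 was higher and 3 were lower in the UPF1 than in the DHX34 knockdown (17435 genes tested, 9.89% called higher and 7.47% lower). The knockdowns did not overlap in 19 members (40.4%), against 45.9% of all genes tested. USP39 was higher by 0.27 on the log2 scale (SE 0.03, edgeR adjusted p 0.000113), from 172.8, 176.9 and 165.9 CPM to 203.5, 205.0 and 207.0. SNRNP70 was lower (log2 -0.21, SE 0.03, edgeR adjusted p 0.000419), and both were called whichever library was left out. SF3B4 (-0.20, SE 0.04) and SF3B2 (-0.17, SE 0.03) were called lower in the full fit, and of the 6 fits without a library only in the one without DHX34 knockdown replicate 3. That fit called 9 members, adding SNRPB, SNRPC, SNRPD2, SNRPG and SF1 as lower in the UPF1 knockdown, and each of the other 5 called 2. Of all genes that fit called 21.3% and the other 5 called 10.8% to 12.1%, against 17.4% with all libraries. The median of the 47 was -0.01, beside 0.01 for all genes.

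The 47 genes have 360 annotated isoforms in the files, of which 161 are classed as protein coding, 98 as retained intron, 71 as a coding gene's transcript with no defined coding sequence and 30 as NMD targets. An isoform share is the TPM of an isoform or class as a percent of the TPM of its gene, and the test was limma on the log2 ratio of the class to the rest of the gene with 0.1 TPM added to each, at an adjusted p of at most 0.05. Salmon divides reads among isoforms that share sequence, so a share is an estimate that depends on that division.

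After UPF1 knockdown the NMD-biotype share rose in 6 of the 15 members tested and fell in none. Of all 3846 genes tested 19.5% were called, and 18.4% had a higher share. The median log2 ratio of the 15 moved by 0.97, against 0.45 for all genes. After DHX34 knockdown no share was called among 13 members (limma, 0.676% of 3699 genes called), and the median was 0.15 against 0.01. An unadjusted p under 0.05 was seen in 1 of the 13, beside 340 of the 3699 genes.

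SNRPA1, the U2 A′ protein of the U2 snRNP, changed most. Its NMD share, which is all SNRPA1-207, was 1.64%, 3.04% and 1.57% in SCR, 2.22%, 3.76% and 2.597% in the DHX34 knockdown, and 16.6%, 19.7% and 17.8% in the UPF1 knockdown. The SCR and DHX34 libraries overlapped and the UPF1 libraries stood far above. The log2 ratio rose by 3.39 (SE 0.25, limma adjusted p 7.13e-05) over SCR. The level of the class went from 2.70 to 27.0 TPM, and that of the whole gene from 129.5 to 149.5 TPM. In the count fit the gene had a log2 fold change of -0.07. The main coding isoform SNRPA1-201 fell from 92.0%, 90.5% and 93.9% to 70.8%, 70.6% and 71.2% of the gene. SNRPA1-207 is the isoform whose skipped exon of 80 bases is shown above.

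SNRPB, the ring gene whose protein SmB is known to control inclusion of an exon in its own mRNA, came next to SNRPA1 in the rise of its log2 ratio. The share of SNRPB-203, with the extra exon of 124 bases, was 0.284%, 0.294% and 0.316% in SCR, 0.402%, 0.293% and 0.310% in the DHX34 knockdown, and 3.02%, 2.57% and 2.77% in the UPF1 knockdown. Its log2 ratio rose by 3.18 (SE 0.17, limma adjusted p 8.21e-06), from 1.63 to 14.3 TPM.

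TXNL4A, a small U5 protein, had NMD shares of 7.65%, 8.32% and 10.7% in SCR, 10.1%, 11.1% and 7.42% in the DHX34 knockdown, and 15.4%, 19.0% and 17.5% in the UPF1 knockdown (log2 ratio 1.10, SE 0.16). Of its 4 NMD isoforms, TXNL4A-204 moved most, from 4.78%, 5.68% and 5.66% to 9.16%, 10.0% and 9.24%. The NMD share of SF1 was 3.01%, 3.22% and 3.40% in SCR, 3.88%, 4.23% and 4.02% in the DHX34 knockdown, and 5.34%, 5.46% and 5.63% in the UPF1 knockdown. The 3 groups of SF1 did not overlap, and the step from SCR to DHX34 knockdown was not called (limma adjusted p 0.546). SF1-211 alone, the isoform that skips 76 bases, went from 0.303% to 0.447% in SCR to 2.86% to 2.89% in the UPF1 knockdown.

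SF3B3 and USP39 completed the 6. SF3B3-209 made up 1.07%, 0.903% and 1.12% of SF3B3 in SCR, 1.18%, 1.60% and 1.26% in the DHX34 knockdown, and 2.00%, 2.08% and 2.03% in the UPF1 knockdown (log2 ratio 0.97, SE 0.19). The NMD share of USP39 was 0.473%, 1.49% and 1.46% in SCR, 1.49%, 1.35% and 3.21% in the DHX34 knockdown, and 4.30%, 5.92% and 3.25% in the UPF1 knockdown (log2 ratio 2.03, SE 0.43). USP39 lost its call without UPF1 knockdown replicate 2, and SART1 was then called in its place. The other 5 kept theirs in all 6 such fits. Over all genes these fits called 441 to 674 NMD shares, against 749 with all libraries. Counted as a percent of the gene's expected counts in place of TPM, SNRPA1 went from 1.31% to 2.58% in SCR to 14.9% to 17.4% in the UPF1 knockdown, and SNRPB from 0.251% to 0.279% to 2.27% to 2.67%.

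**Figure D4:**
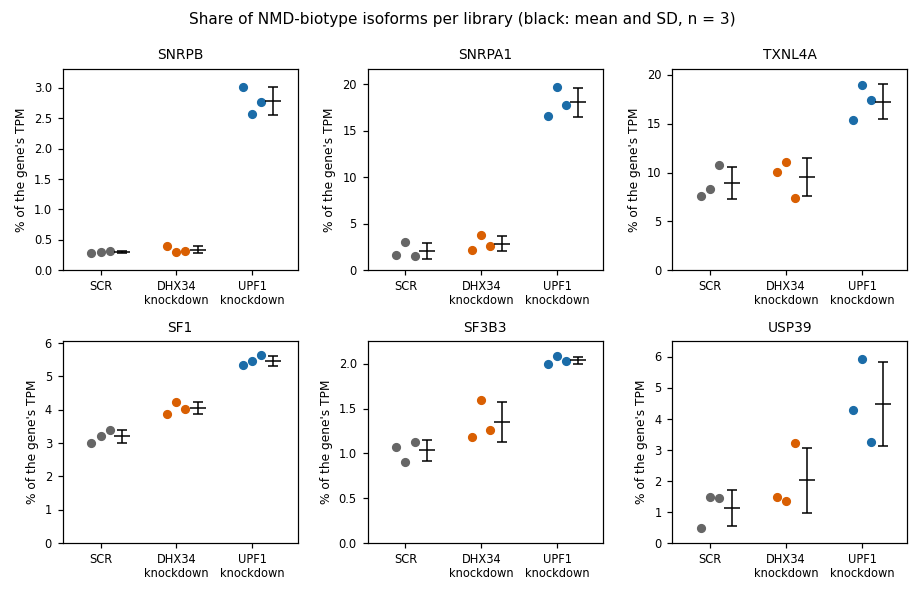
NMD-biotype isoforms as a percent of the gene's TPM (vertical axes from 0) in each library of SCR (grey), DHX34 knockdown (orange) and UPF1 knockdown (blue), with the mean and SD in black (n = 3), for the 6 members whose share rose after UPF1 knockdown. The UPF1 libraries lie above all 6 others in each panel, and SNRPA1 reaches 19.7%.

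Set directly against the DHX34 knockdown, the NMD share was higher in the UPF1 knockdown in 6 of 15 members (3904 genes tested, 17.5% called in either direction and 16.9% higher). SNRPA1, SNRPB and TXNL4A were called in all 6 fits that leave out a library. EFTUD2 kept its call in 4 of them, losing it without UPF1 knockdown replicate 2 or 3, SNRNP70 in 2, and SF1 in none, and 3 members were called without UPF1 knockdown replicate 2. Over all genes these fits called 370 to 632 shares, against 684 with all libraries, and 388 without UPF1 knockdown replicate 2. SNRNP70 had NMD shares of 8.37%, 7.60% and 8.48% in the DHX34 knockdown and 12.03%, 10.7% and 9.97% in the UPF1 knockdown. EFTUD2 had 1.65%, 0.726% and 1.41% and 2.39%, 3.42% and 3.50%. Not every NMD-biotype isoform was scarce in SCR. The NMD class made up 64.6%, 62.3% and 65.8% of SNRNP27 and 56.9%, 55.7% and 53.0% of AQR in SCR, and neither was called in any comparison. CRNKL1 had no TPM on its NMD isoforms in any library, and SNRPA, SNW1, SART1, PLRG1 and SF3A1 had shares that were not called.

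Retained-intron isoforms gave a different picture, with calls in both knockdowns and none in the direct comparison. All 25 members with such isoforms were tested. In the DHX34 knockdown 5 were called, 2 higher and 3 lower (limma, 5254 genes tested, 0.742% called), and in the UPF1 knockdown 4 were called, 2 higher and 2 lower (5265 genes, 2.2% called). Between the knockdowns none of the 25 was called (5387 genes, 0.427% called), with 4 at an unadjusted p under 0.05, beside 566 of the 5387 genes.

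SNRNP200 showed the clearest shift. Its retained-intron share was 35.2%, 28.2% and 32.6% in SCR, 12.6%, 10.4% and 14.0% in the DHX34 knockdown, and 18.2%, 15.4% and 14.4% in the UPF1 knockdown. All knockdown libraries lay below all SCR libraries. The log2 ratio fell by 1.74 (SE 0.18, limma adjusted p 0.00662) and by 1.30 (SE 0.16, limma adjusted p 0.0134). By expected counts the share was 11.3% to 14.9% in SCR, 3.36% to 4.44% in the DHX34 knockdown and 4.66% to 6.18% in the UPF1 knockdown. Most of it was SNRNP200-208, at 29.1%, 22.7% and 27.7% in SCR, 6.96%, 6.14% and 6.93% in the DHX34 knockdown, and 11.05%, 8.48% and 8.34% in the UPF1 knockdown, while the coding SNRNP200-201 rose from 64.8%, 71.8% and 67.4% to 87.4%, 89.6% and 86.0% and to 81.8%, 84.6% and 85.6%. SNRNP200 was called in all 6 fits without a library in the DHX34 comparison, and in the UPF1 comparison it lost its call without UPF1 knockdown replicate 2 or 3.

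AQR, the helicase that binds introns in the activated spliceosome, had retained-intron shares of 10.9%, 12.6% and 14.9% in SCR, 0.642%, 0.703% and 1.08% in the DHX34 knockdown, and 0.893%, 3.83% and 4.13% in the UPF1 knockdown. The log2 ratio fell by 3.46 (SE 0.35, limma adjusted p 0.00662) in the DHX34 knockdown, and after UPF1 knockdown the value of -2.24 was not called (adjusted p 0.0717). The share rested on AQR-205, a transcript of 752 bases in a gene with a mean effective length of 6078 bases. Short transcripts weigh more in TPM than in counts, and by expected counts the class was 1.23% to 1.66% of AQR in SCR and 0.294% to 0.513% in the DHX34 knockdown.

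EFTUD2 moved the other way, with shares of 21.3%, 25.1% and 23.8% in SCR, 33.2%, 34.1% and 36.4% in the DHX34 knockdown, and 32.6%, 32.5% and 33.8% in the UPF1 knockdown (log2 ratios of 0.79, SE 0.11, and 0.69, SE 0.10). By expected counts these were 3.72% to 4.43%, 6.10% to 6.77% and 6.12% to 6.55%, again without overlap. SNRNP70 rose in the DHX34 knockdown, from 4.16%, 7.33% and 5.29% to 15.6%, 12.7% and 12.8%, and stood at 9.42%, 11.997% and 11.4% in the UPF1 knockdown (adjusted p 0.0647). By expected counts the share of SNRNP70 was 5.01% to 6.70% in SCR and 7.48% to 11.7% in the DHX34 knockdown, and the call was lost (log2 ratio 0.71, limma adjusted p 0.193, against 1.45 in TPM). PHF5A was called in the UPF1 knockdown and not in the DHX34 knockdown, though the direct comparison did not call the difference (limma adjusted p 0.186). Its share went from 2.49%, 2.05% and 1.36% in SCR to 7.55%, 6.92% and 5.12%. SF3B3 had a retained-intron share of 82.4%, 81.9% and 81.2% in SCR and fell to 78.5%, 78.2% and 77.5% in the DHX34 knockdown and to 79.2%, 77.3% and 77.4% in the UPF1 knockdown. By expected counts the share of SF3B3 was 27.3% to 27.9% in SCR and 23.3% to 24.2% in the DHX34 knockdown, which was not called (limma adjusted p 0.065), and 23.7% to 25.4% in the UPF1 knockdown.

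Apart from SNRNP200 and AQR, these retained-intron calls were lost in most fits that left out a library, and such fits had fewer samples. SNRNP200 also lost its UPF1 call in 2 of the 6 fits, as given above. Over all genes these fits called 18 to 41 shares in the DHX34 comparison, against 39 with all libraries. In the UPF1 comparison they called 19 to 95, against 116. EFTUD2 kept its call in 1 of 6 fits without a library in the DHX34 comparison and in 2 of 6 in the UPF1 comparison, SNRNP70 and PHF5A in 1 each, and SF3B3 in 0 and 1. In the DHX34 comparison 2 members were called without SCR replicate 1, DHX34 knockdown replicate 1 or DHX34 knockdown replicate 3, and 3 without SCR replicate 3 or DHX34 knockdown replicate 2, which added SNW1 and CRNKL1. In the UPF1 comparison 1 was called without SCR replicate 3, 2 without UPF1 knockdown replicate 1 and 0 without UPF1 knockdown replicate 2 or 3.

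The biotype name describes these transcripts only in part. None of SNRNP200-208, AQR-205, EFTUD2-215, SF3B3-206, PHF5A-202 and SNRNP70-205, the most abundant retained-intron isoform of each gene, holds a whole intron of the leading coding isoform. SNRNP200-208 (chr2:96274731-96284723, minus strand) begins inside intron 30 of 44, and 138 of its 2666 bases lie in no coding isoform. AQR-205 (chr15:34856827-34863224, minus strand) begins in intron 32 of 34 with 183 such bases, and SF3B3-206 begins in intron 23 of 25 with 91. EFTUD2-215 ends inside intron 4 of 26 with 93 such bases, SNRNP70-205 inside intron 4 of 9 with 119, and PHF5A-202 has 104.

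**Figure D5:**
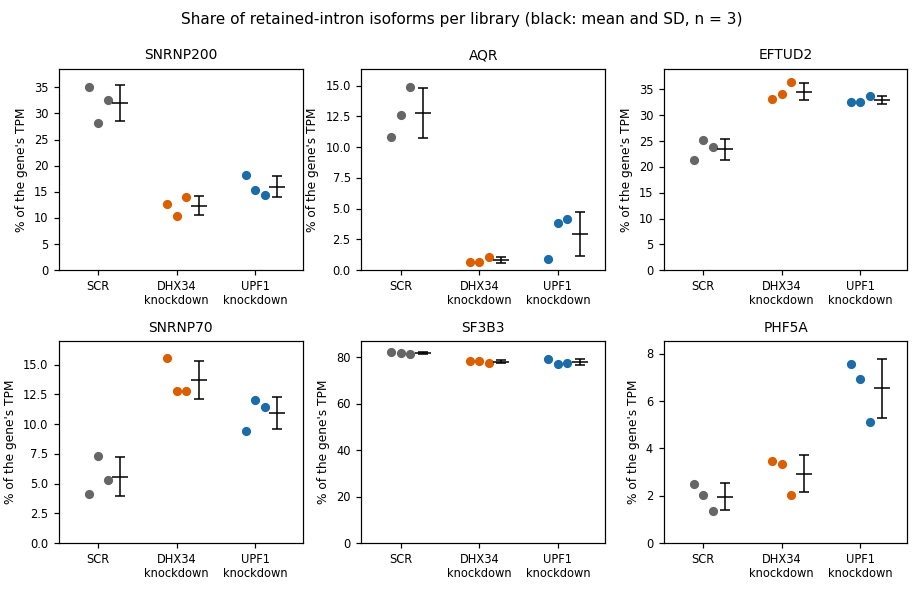
Retained-intron isoforms as a percent of the gene's TPM (vertical axes from 0) in each library of SCR (grey), DHX34 knockdown (orange) and UPF1 knockdown (blue), with the mean and SD in black (n = 3), for the 6 members called in either knockdown. SNRNP200 and AQR lie lower in both knockdowns and EFTUD2 higher, and the UPF1 value of AQR was not called.

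Single isoforms were tested where their mean was at least 0.5 TPM. In the DHX34 knockdown 4 of 203 member isoforms were called, in 3 genes (40204 isoforms tested, 0.42% called). Those were SNRNP200-208 and SNRNP200-201, AQR-205, which went from 9.81%, 12.2% and 14.0% of AQR to 0% in all 3 libraries, and the coding EFTUD2-223, which fell from 31.9%, 31.1% and 30.1% to 23.4%, 23.2% and 22.2%. SNRNP200-208 and SNRNP200-201 were called in all 6 fits without a library, AQR-205 in 1, that without DHX34 knockdown replicate 1, and EFTUD2-223 in none. With SCR replicate 1 or DHX34 knockdown replicate 3 left out 2 isoforms were called.

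In the UPF1 knockdown 25 of 201 member isoforms were called in 12 genes, 16 higher and 9 lower (41594 tested, 4.81% called). The largest differences in share were in SNRPA1-201, SNRNP200-208, SNRPA1-207 and SNRNP200-201, given above. USP39-201, the main coding isoform of USP39, fell from 71.9%, 68.5% and 70.9% to 58.5%, 58.7% and 57.8%, and USP39-208, which has no defined coding sequence, rose from 5.04%, 4.99% and 4.06% to 9.67%, 10.9% and 9.47%. EFTUD2-215 rose from 18.2%, 23.9% and 22.8% to 31.9%, 31.7% and 32.3%, EFTUD2-223 fell to 23.5%, 23.6% and 20.2%, and SF3B3-206 fell from 31.7%, 31.9% and 30.9% to 27.7%, 25.3% and 25.0%. BCAS2-202, the isoform of the Prp19 complex gene that skips 71 bases, rose from 2.26%, 2.28% and 2.48% to 7.01%, 7.30% and 6.57% (limma adjusted p 0.00411), although the annotation gives it no coding sequence and so no NMD class. The isoforms of SNRPA1, SNRNP200 and BCAS2 named here, SNRPB-203, SF1-211, USP39-201 and USP39-208 were called in all 6 fits without a library, EFTUD2-215 in 2, and EFTUD2-223 and SF3B3-206 in none. With 1 library left out 12 to 19 isoforms were called, 12 without UPF1 knockdown replicate 3 and 13 without replicate 2.

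Between the knockdowns 16 of 210 isoforms were called in 9 genes, 8 higher and 8 lower in the UPF1 knockdown (43137 tested, 2.61% called). SNRPA1-201, SNRPA1-207 and SNRPB-203 were called in all 6 fits without a library and USP39-208 in 5. Lower coding isoforms were USP39-201, at 69.4%, 71.5% and 66.9% in the DHX34 knockdown and 58.5%, 58.7% and 57.8% in the UPF1 knockdown, TXNL4A-210 (16.4%, 16.6% and 19.9% and then 12.2%, 9.36% and 11.2%), SNRPB-202 (53.1%, 53.2% and 54.0% and then 45.8%, 46.9% and 47.5%) and SNRPE-202 (67.9%, 66.9% and 67.8% and then 63.2%, 61.3% and 61.9%). The last 3 were called in no fit without a library. With 1 library left out 4 to 12 isoforms were called, the fewest without UPF1 knockdown replicate 1 or 2.

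Genes that work beside the members were counted for context, from lists written with earlier results of these data known. For all the lists, the shares over all genes tested were 4.86% lower and 5.54% higher in the DHX34 knockdown. They were 12.9% and 12.4% in the UPF1 knockdown, and the median of all genes was 0.02 in both. An unadjusted p under 0.05 was seen in 6231 of 17004 genes in the DHX34 knockdown. Of 39 other spliceosome genes 6 fell and 1 rose in the DHX34 knockdown, and 14 fell and 4 rose in the UPF1 knockdown, with medians of -0.06 and -0.03. Among them the 7 genes of the LSM ring, which takes the place of the Sm ring on U6 RNA, had medians of -0.24 and -0.22. The medians of the Sm ring were -0.24 and -0.32. In the LSM ring 3 genes fell in the DHX34 knockdown (LSM5, LSM6 and LSM7) and 6 in the UPF1 knockdown (all but LSM4). The 8 helicases among these 39 genes, which leave out the members SNRNP200 and AQR, had medians of 0.11 and 0.08. None had an edgeR call in the DHX34 knockdown (5 at an unadjusted p under 0.05). In the UPF1 knockdown 2 rose, DDX42 and DDX39B (0.23 and 0.19). PRPF8, the U5 scaffold, was the gene that rose in the DHX34 knockdown (log2 fold change 0.20, SE 0.04, edgeR adjusted p 0.00318). It was not called in the UPF1 knockdown (adjusted p 0.996), and it was lower there than in the DHX34 knockdown in the direct comparison (log2 -0.18).

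Of 8 genes of the minor spliceosome none was called by edgeR in the DHX34 knockdown. An unadjusted p under 0.05 was seen in 2 of them, beside 6231 of all 17004 genes tested. In the UPF1 knockdown SNRNP48 rose (0.27) and SNRNP35 and ZCRB1 fell (-0.35 and -0.23). Of 13 genes that assemble snRNPs, WDR77, a partner of the methyltransferase that modifies Sm proteins, fell in the DHX34 knockdown (-0.32) and GEMIN5, the SMN-complex protein that binds snRNAs, rose (0.24). In the UPF1 knockdown 6 of these 13 fell and none rose, with a median of -0.16. In the direct comparison 3 genes of the first list were higher and 4 lower, SNRNP48 and ZMAT5 of the minor spliceosome were higher, and of the assembly genes WDR77 was higher and GEMIN4 and DDX20 lower. Of all genes tested there, 9.89% were called higher and 7.47% lower.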

How the data were processed

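Poly(A) RNA was sequenced from 9 libraries of K562 cells, 3 per group. Groups and replicate numbers were taken from the labels, which do not say that replicates were separate cultures, so p-values measure the spread between these libraries. The paper describes the replicates as biological and reports that not all of those made were sequenced. The authors quantified each library with salmon against coding and noncoding Ensembl cDNA of GRCh38, with correction for GC bias, and deposited expected counts and TPM (abundance corrected for length and library size) for each transcript. They also deposited sleuth tables (transcript or gene effects with p-values) and SUPPA2 tables (changes in splicing events with p-values), which hold their own comparisons and were not used.

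Transcripts were joined by identifier to GENCODE annotation of GRCh38, which named 97.9% of the 203027 transcripts. Expected counts were summed per gene and rounded, and library totals ran from 73478797 to 103625443. Each pair of groups was fitted over all genes with edgeR 4.0.16 (quasi-likelihood test, TMM scaling, filterByExpr with a minimum count of 10), and genes were called where the p adjusted by Benjamini-Hochberg did not exceed 0.005. Shares of a gene's TPM in one biotype class or one isoform were tested with limma 3.58.1 (trend, robust) on the log2 ratio of that TPM to the rest of the gene, each with 0.1 TPM added, and called at an adjusted p of at most 0.05. Class tests took genes averaging 1 TPM or more whose class averaged 0.1 TPM or more. Isoform tests took transcripts with a mean of at least 0.5 TPM in genes with at least 2 of them. All tests were two-sided. The fits were also tested on simulated data with known changes. The alternatives were DESeq2 1.42.0, other filters, thresholds, pseudocounts and length offsets, TPM in place of counts, a replicate block, and leaving out each library. R 4.3.3, Python 3.11.15, pandas 2.3.3, numpy 2.4.6, pysam 0.24.0 and matplotlib 3.10.9 were used.

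The members and gene lists were chosen with earlier results of these data known. Every member is accounted for. Values are given for members called with no overlap between the groups (at most 12 in each direction), for members called in a class share (at most 10), for the called isoforms with the largest differences (at most 8), for SNRPB and SNRPN, and for the highest and lowest levels. Other members named were chosen after their values were seen.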

Additional observations from a re-analysis of the deposited data

Results flagged for a closer look

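The results here were picked out because the UPF1 and DHX34 knockdowns differed from each other in a direct test between their libraries, without the SCR libraries. Differences are the UPF1 knockdown minus the DHX34 knockdown, over 3 libraries each.

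At the level of the gene, 4 of 47 members passed (edgeR quasi-likelihood test, adjusted p of at most 0.005). Of all genes tested 17.4% passed. USP39, a tri-snRNP factor, was higher in the UPF1 knockdown by a log2 difference of 0.27. The U1 protein gene SNRNP70 had a log2 difference of -0.21, and the U2 protein genes SF3B4 and SF3B2 had differences of -0.20 and -0.17. The calls of SF3B4 and SF3B2 were lost in most fits that left out a library, as given above.

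For the share of a gene's TPM in transcripts annotated as NMD targets, 6 of 15 members passed (limma, adjusted p of at most 0.05). In all 6 the share was higher in the UPF1 knockdown. Of all genes tested 17.5% passed and 16.9% had a higher share. The call of SF1 was lost whichever library was left out. SNRPA1, the U2 A′ protein gene, had a difference of 15.2 percentage points, and TXNL4A, a U5 protein gene, one of 7.71 points. SNRNP70 had 2.76 points, SNRPB 2.45 points, the U5 GTPase gene EFTUD2 1.85 points and the branch point binding protein gene SF1 1.43 points.

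Among single isoforms, 16 of 210 passed the same test, beside 2.61% of all isoforms tested. In SNRPA1, isoform 201 differed by -20.3 points, while isoforms 207, 202 and 213 differed by 15.2, 2.49 and 2.08 points. In USP39, isoform 201 differed by -10.9 points and isoform 208 by 5.30 points. In TXNL4A, isoform 210 differed by -6.74 points and isoform 204 by 3.70 points. SNRPB-202 differed by -6.73 points and SNRPB-203 by 2.45 points. SF1-205 differed by -2.48 points and SF1-211 by 2.34 points. The remaining isoforms were SNRPE-202 with -5.43 points, SF3B4-201 with -1.99 points, EFTUD2-214 with 1.44 points and SNRPG-201 with -1.10 points. TXNL4A-210, SNRPB-202 and SNRPE-202 lost their calls whichever library was left out.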

How the results depend on the processing

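In this paragraph the share of all tested genes that was called stands in brackets after each count of members called at the gene level. In the DHX34 knockdown against SCR, 6 members were called (10.4%), against 22 at an adjusted p of at most 0.05 (25.9%), 18 by DESeq2 (20%), 17 with no filter on low counts (11.7%), 14 in one fit on all 9 libraries (14.4%), 3 with an effective length offset (4.63%), 2 by limma on log2(TPM + 0.5) (5.35%) and 3 on log2(TPM + 0.1) (5.72%). In the UPF1 knockdown, 19 (25.3%) became 33 at an adjusted p of at most 0.05 (40.3%), and 7 and 8 on the same TPM scales (20.7% and 21%). The direct comparison of the knockdowns went from 4 (17.4%) to 9 at an adjusted p of at most 0.05 (32.6%). On both TPM scales 8 of the 18 falls in the UPF1 knockdown changed sign, to log2 changes of 0.034 (SNRPA), 0.054 (SF3B2), 0.042 (SNRNP40), 0.079 (PRPF6), 0.125 (PRPF19), 0.015 (PLRG1) and 0.033 (RBM17), with CDC5L at 0.0603 and 0.0618. The cause was not tested. With expected counts in place of TPM, 3 and not 5 members were called in retained-intron share in the DHX34 knockdown. Over all 5254 genes tested the calls went the other way, with 53 on expected counts and 39 on TPM.

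Leaving out 1 library at a time gave 2 to 8 called members in the DHX34 knockdown (2 without SCR replicate 1, SCR replicate 3 or DHX34 knockdown replicate 1), 13 to 17 in the UPF1 knockdown and 2 to 9 in the direct comparison (9 without DHX34 knockdown replicate 3, and 2 without any other library). Of all genes these fits called 4.48% to 10.3%, 18.1% to 20.9% and 10.8% to 21.3%. NMD-biotype calls stayed at 0 in the DHX34 knockdown and at 6 in the UPF1 knockdown, and ran from 3 to 6 in the direct comparison, with 3 without UPF1 knockdown replicate 2. Over all genes the NMD-biotype calls ran from 13 to 19, 441 to 674 and 370 to 632, against 25, 749 and 684 with all libraries. Retained-intron calls ran from 2 to 4, from 0 to 3 (0 without UPF1 knockdown replicate 2 or 3) and from 0 to 0. Over all genes the retained-intron calls ran from 18 to 41, 19 to 95 and 13 to 33, against 39, 116 and 23. Isoform calls ran from 2 to 3, from 12 to 19 and from 4 to 12, against 4, 25 and 16 with all libraries. Over all isoforms the calls ran from 57 to 198, 646 to 1566 and 389 to 935, against 169, 2001 and 1126. These fits also had fewer samples.

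Same-numbered libraries did not deviate together (correlations of -0.09 to 0.08), so the numbers were not taken as pairs. With a replicate block the called members were 4, 17 and 3 in the order above, beside 5.16%, 24% and 12.5% of all genes. The block gave 0, 6 and 3 for NMD-biotype share, 2, 3 and 0 for retained-intron share, and 2, 12 and 3 for isoforms. Over all genes or isoforms it called 26, 622 and 500, then 17, 52 and 9, and then 15, 521 and 323.

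Of the values recomputed for every called member, class share and isoform, 728 kept direction and call, 323 kept direction and lost the call, and 16 changed sign, those of the 8 genes above on both TPM scales.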
